A study of Mus musculus with 48 samples.

Results

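The genes described here are 6 matrix metalloproteinases (Mmp2, Mmp9, Mmp12, Mmp13, Mmp14 and Mmp19) and 3 tissue inhibitors of metalloproteinases (Timp1, Timp2 and Timp3), taken by gene name from the deposited count table, so 9 of its 24411 genes. Their RNA was measured in macrophages washed from the airspaces of 24 male mice. Of these mice, 12 were Siglec-F knockouts (KO), which lack a sialic acid-binding receptor of mouse alveolar macrophages, and 12 were wild type (WT). Each genotype had a naive group, which received saline and is labelled day 0, and groups sampled 7, 14 and 21 days after 2.5 units/kg of bleomycin into the trachea, with 3 mice in each of the 8 groups. Bleomycin injures the lung and is used in mice as a model of fibrosis. The labels do not state how the KO allele was made or how macrophages were separated from other lavage cells. The comparisons ask how the proteases and their inhibitors change after injury, how they differ between days, and whether KO mice differ from WT mice in any of this.

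Matrix metalloproteinases (MMPs) are zinc proteases that cut collagens, elastin, other matrix proteins and many secreted or membrane proteins. They are made as inactive proenzymes and are switched on by removal of the propeptide, by furin-like convertases inside the cell or by plasmin and other proteases outside it. TIMPs bind the active site and block it, and TIMP2 has a second role, since together with the membrane-anchored MMP14 it brings pro-MMP2 to the cell surface for activation. Macrophages of the lung are a known source of the macrophage elastase MMP12, which is linked to emphysema and to remodelling after injury.

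Library totals ran from 24877049 to 47457085 counts. Siglecf held 0 to 25 counts in KO libraries and 2631 to 20368 in WT libraries, so the genotype labels held in all 24. In the KO groups, 3 libraries lay nearer the naive mice than the other bleomycin libraries on the first principal component of all genes, which held 57.52% of the variance: mice 2 and 3 of day 14 (1.63 and -15.81) and mouse 1 of day 21 (-20.43), against -59.23 to -54.02 for naive mice and 14.15 to 38.68 for the other bleomycin mice. Markers of resident alveolar macrophages summed to 10457 to 33672 CPM (counts scaled to a common library size) per mouse, and all 13 were detected. Markers of fibroblasts summed to at most 11.4 CPM, with Lum and Tcf21 at 0 in every mouse. Of the 11 neutrophil markers measured, 2 (Elane and Camp) were at 0 throughout, and the list summed to at most 147 CPM. Epithelial markers summed to 113 to 288 CPM, highest in WT day 7 mouse 3, and endothelial markers to 60.9 to 143 CPM. In naive mice these sums were mostly Epcam and Cdh1 (104 and 145 CPM on average in KO mice) and Vwf (114 CPM). Sftpc averaged 28.9 CPM in WT mice at day 7, against 0.339 CPM in WT naive mice. T and NK cell markers reached 40.7 CPM in KO day 21 mouse 2, which also had the highest sums of fibroblast, neutrophil, B cell and dendritic cell markers.

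Levels are given in CPM after TMM scaling. A gene was called in a comparison when its Benjamini-Hochberg adjusted p from edgeR's quasi-likelihood test over all 12634 tested genes was under 0.05. All 9 genes passed the filter on low counts. Mmp2, Mmp9, Timp1 and Timp3 reached its minimum in fewer than 3 of the 6 naive libraries, so they passed through their bleomycin libraries, and a higher value after bleomycin was then partly fixed by the filter. The other 5 would have passed on naive libraries alone.

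Most of the 9 genes were called higher after bleomycin in both genotypes, and none was called lower. In KO mice 7 of the 9 genes rose by day 7, 6 by day 14 and 8 by day 21, beside 19.7%, 12.0% and 15.0% of all tested genes that rose. In WT mice 7 rose by day 7, 8 by day 14 and 8 by day 21, beside 20.2%, 18.7% and 18.8% of all tested genes. Of the 5 genes that passed the filter in naive mice, 4 were called at each day in KO mice, and 4, 5 and 5 at days 7, 14 and 21 in WT mice. The median log2 fold change of the 9 genes, with genes absent from naive mice set at their lower bound, was 4.12, 3.37 and 4.12 at days 7, 14 and 21 in KO mice and 3.45, 4.03 and 4.47 in WT mice. That of all tested genes was at most 0.02. The KO day 14 median is the bound of Timp3, and both day 21 medians are bounds of Mmp9. Without bounds these 3 medians were 5.29, 6.43 in KO mice and 4.66 in WT mice. The medians include the 4 genes that passed through their bleomycin libraries, and they are not compared between days or genotypes. In these bulk libraries, a change in the share of cells of 1 kind and a change in the RNA per cell cannot be told apart.

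**Figure D1:**
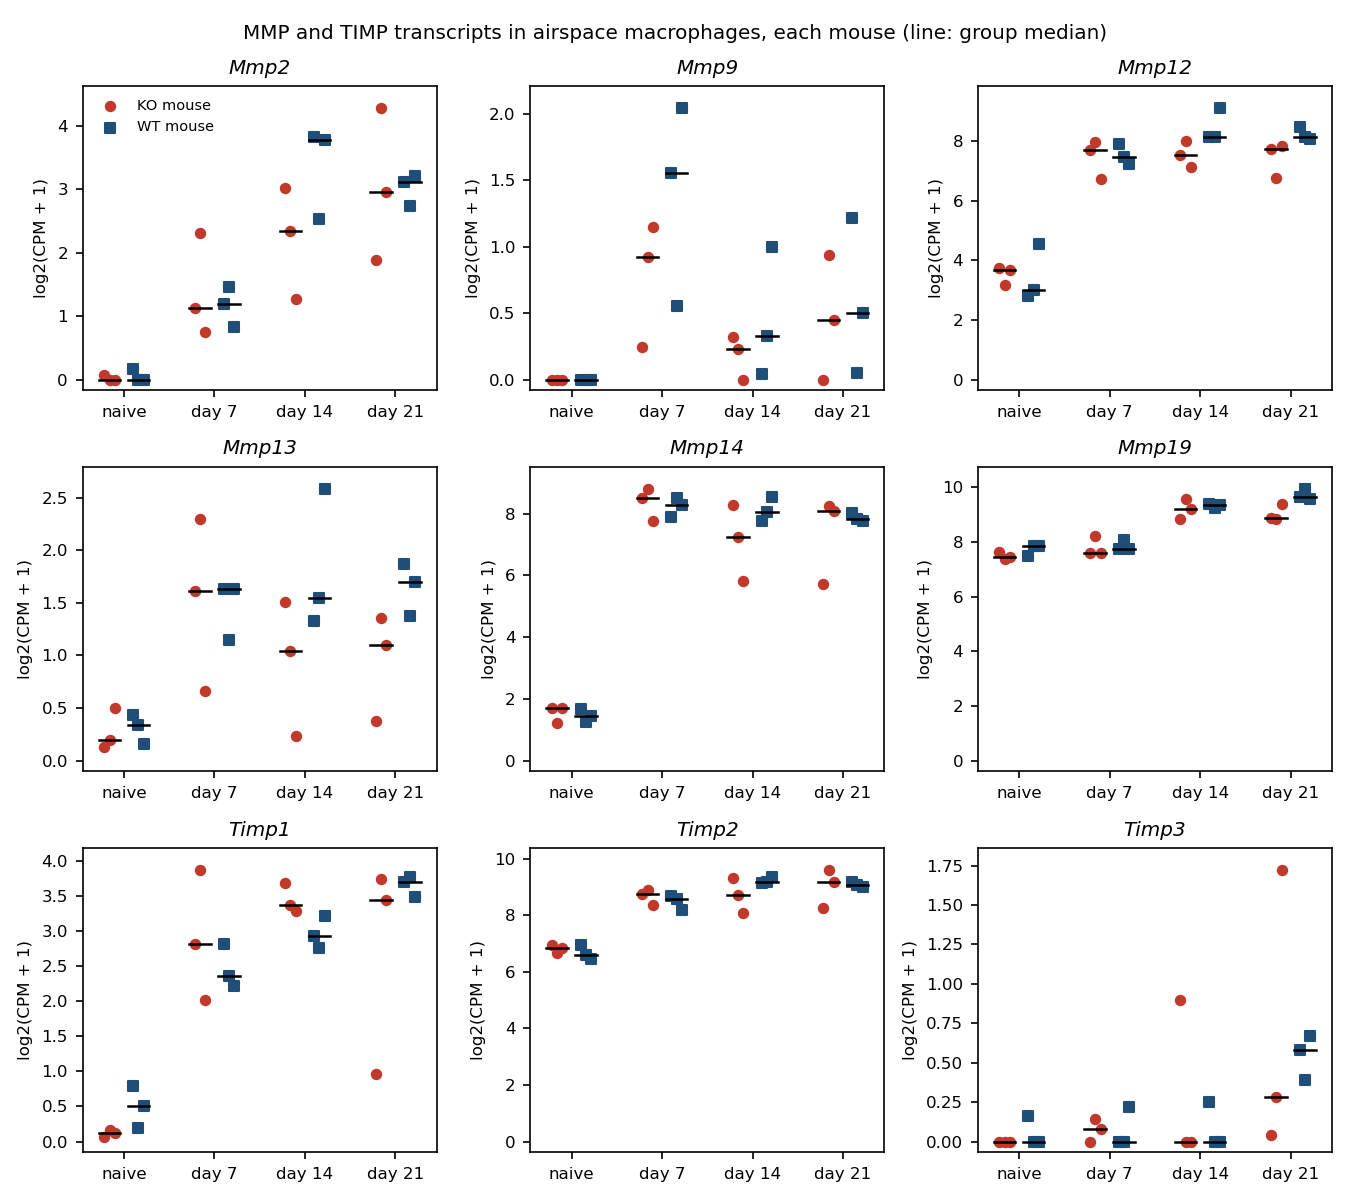
Level of each of the 9 genes in each mouse, as log2(CPM + 1), by time, with KO mice as red circles left of WT mice as blue squares and the group median as a black line. Mmp14 lies at 51.2 to 447 CPM in bleomycin mice and at 1.33 to 2.25 CPM in naive mice, while Mmp19 is near its naive level at day 7 and higher at days 14 and 21.

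Among the genes with reads in every naive library, Mmp14 had the largest fold change at each day except day 14 in KO mice, where that of Timp1 was larger. Mmp14 encodes a membrane-anchored collagenase (chr14:54431612-54445364, plus strand, GRCm38, the build named mm10 in the submitters' processing notes). In KO mice the 3 values were 2.25, 1.33 and 2.24 CPM when naive, 367, 447 and 215 at day 7, 312, 152 and 55.4 at day 14, and 51.2, 304 and 270.2 at day 21. In WT mice they were 2.21, 1.38 and 1.70 CPM when naive, 238, 359.9 and 313 at day 7, 218, 263 and 369 at day 14, and 260.4, 224 and 216 at day 21. Every bleomycin mouse lay above every naive mouse, and the lowest bleomycin values, 51.2 and 55.4 CPM, belonged to KO day 21 mouse 1 and KO day 14 mouse 3, both among the libraries nearest the naive mice. The log2 fold change over naive mice was 7.46 ± 0.68, 6.47 ± 0.65 and 6.74 ± 0.66 (SE) at days 7, 14 and 21 in KO mice and 7.44 ± 0.68, 7.34 ± 0.68 and 7.06 ± 0.68 in WT mice, with edgeR adjusted p-values from 6.81e-08 to 7.11e-07.

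Mmp12, the macrophage elastase (chr9:7344381-7369499, plus strand), rose in the same way from a higher naive level. KO mice had 12.3, 8.14 and 11.9 CPM when naive, 208, 249 and 105 at day 7, 184, 259 and 141 at day 14, and 213, 109 and 227 at day 21. WT mice had 6.02, 7.08 and 22.4 CPM when naive, 242, 177 and 149.7 at day 7, 284, 283 and 559.7 at day 14, and 354, 284 and 273 at day 21. No bleomycin mouse overlapped a naive one, and the highest values were those of WT mice at days 14 and 21. The rise was about the same at each day in KO mice, with log2 fold changes of 4.12 ± 0.47, 4.17 ± 0.47 and 4.09 ± 0.47, and was 3.98 ± 0.47, 4.96 ± 0.49 and 4.66 ± 0.48 in WT mice (SE; edgeR adjusted p-values from 2.51e-07 to 2.76e-06).

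Mmp13, an interstitial collagenase whose gene is a neighbour of Mmp12 (chr9:7272514-7283331, plus strand), was measured near 1 CPM. KO mice had 0.0920, 0.145 and 0.415 CPM when naive, 2.06, 3.93 and 0.580 at day 7, 1.85, 1.06 and 0.179 at day 14, and 0.298, 1.56 and 1.14 at day 21. WT mice had 0.350, 0.264 and 0.119 CPM when naive, 2.10, 1.22 and 2.10 at day 7, 1.5, 1.93 and 5.01 at day 14, and 2.65, 1.59 and 2.25 at day 21. In KO mice the bleomycin groups of days 14 and 21 overlapped the naive group, through the same libraries that were low in Mmp14. The log2 fold change of 3.31 ± 0.83 at day 7 was called in KO mice (edgeR adjusted p = 0.00386), whereas 2.20 ± 0.82 at day 14 and 2.17 ± 0.82 at day 21 were not (adjusted p = 0.0721 and 0.0613, with 95% intervals of 0.49 to 3.92 and 0.47 to 3.87). With KO day 14 mouse 3 left out the day 14 value was 2.71 (adjusted p = 0.0210), and with KO day 21 mouse 1 left out the day 21 value was 2.61 (adjusted p = 0.0207), both by edgeR. The day 21 value was also called without KO naive mouse 3 (3.04, adjusted p = 0.0459), and DESeq2 called both days (adjusted p = 0.0270 and 0.0240). WT mice were called at all 3 days, with 2.93 ± 0.83, 3.57 ± 0.84 and 3.19 ± 0.84 (adjusted p from 0.00288 to 0.0095), and the day 7 call was lost, at 2.56 and adjusted p = 0.0512, without WT naive mouse 3.

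Mmp12 and Mmp13 lie in a cluster of 10 metalloproteinase genes on chromosome 9, from 7272514 to 7699585. The 4 that passed the filter were Mmp12, Mmp13, Mmp8 and Mmp27. Promoter sequence from RefSeq (GRCm38.p6) was at hand for 6 of the 9 genes, namely Mmp12, Mmp13, Mmp14, Timp1, Timp2 and Timp3. The 150 bases before the start are shown for 4 genes that were called higher at day 7 in both genotypes, though their later courses differed. They set the proteases of the cluster beside Mmp14 and its partner Timp2, 5′ to 3′ on the strand of the gene and with motif matches in capitals.
Mmp13, chr9:7272364-7272513, plus strand: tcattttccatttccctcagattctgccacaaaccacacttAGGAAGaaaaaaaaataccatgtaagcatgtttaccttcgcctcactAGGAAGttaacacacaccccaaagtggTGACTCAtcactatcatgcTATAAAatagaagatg
Mmp12, second annotated start, chr9:7347224-7347373, plus strand: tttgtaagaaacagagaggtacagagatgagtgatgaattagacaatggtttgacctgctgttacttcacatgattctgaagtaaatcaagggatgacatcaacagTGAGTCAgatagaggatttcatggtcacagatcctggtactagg
Mmp14, chr14:54431448-54431597, plus strand: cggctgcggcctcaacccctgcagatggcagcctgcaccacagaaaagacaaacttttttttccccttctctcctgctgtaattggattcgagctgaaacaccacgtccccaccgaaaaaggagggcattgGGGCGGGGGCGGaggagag
Timp2, chr11:118355412-118355561, minus strand: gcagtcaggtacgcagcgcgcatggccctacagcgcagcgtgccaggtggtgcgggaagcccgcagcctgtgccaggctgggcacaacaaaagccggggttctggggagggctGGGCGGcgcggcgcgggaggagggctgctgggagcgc

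The 250 bases before each start were searched on both strands for the AP-1 site TGANTCA, the ETS core AGGAAG, the TATA box TATAAA and the GC box GGGCGG. Among 32851 promoters of RefSeq, 6.75%, 29.5%, 12.4% and 32.7% held each of them. The Mmp13 promoter held an AP-1 match whose first base lies 35 bases before the start, beside ETS matches at 109 and 62 bases and a TATA box at 16 bases. Before its second start Mmp12 held an AP-1 match at 44 bases, and before its first start an ETS match on the other strand at 87 bases. No AP-1 match lay before the first start, whose letters are not shown. Mmp14 held GC boxes at 19 and 13 bases before the start, directly next to each other, and an ETS match at 209 bases, outside the letters shown. Timp2 held a GC box at 37 bases, in 250 bases with a GC content of 68.0%, against 40.4% for Mmp13. Of the promoters not shown, Timp1 held ETS matches at 175 and 99 bases and a GC box on the other strand at 8 bases. Timp3 held an ETS match at 204 bases and a GC box on the other strand at 15 bases. These matches describe the letters only. No binding was measured, and which Mmp12 start is used in these cells was not tested.

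Mmp19, a secreted protease that cuts basement membrane proteins (chr10:128790910-128800824, plus strand), followed another course. KO mice had 199, 166 and 174 CPM when naive, 192, 293 and 193 at day 7, 461.4, 751 and 590.5 at day 14, and 468, 454.1 and 669.8 at day 21. WT mice had 177, 231 and 227 CPM when naive, 211, 270.0 and 212 at day 7, 671, 599 and 650.2 at day 14, and 801, 983 and 749 at day 21. The day 7 mice overlapped the naive mice in both genotypes, and all mice of days 14 and 21 lay above both. At day 7 the log2 fold change over naive mice was 0.33 in KO mice (95% interval -0.07 to 0.73) and 0.13 in WT mice (-0.27 to 0.52), and neither was called (edgeR adjusted p = 0.190 and 0.639). Mmp19 rose by day 14, with 1.74 ± 0.19 in KO mice and 1.60 ± 0.19 in WT mice, and was higher at day 21 as well, with 1.56 ± 0.19 and 2.00 ± 0.20 (SE; edgeR adjusted p-values from 2.89e-07 to 6.70e-06).

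**Figure D2:**
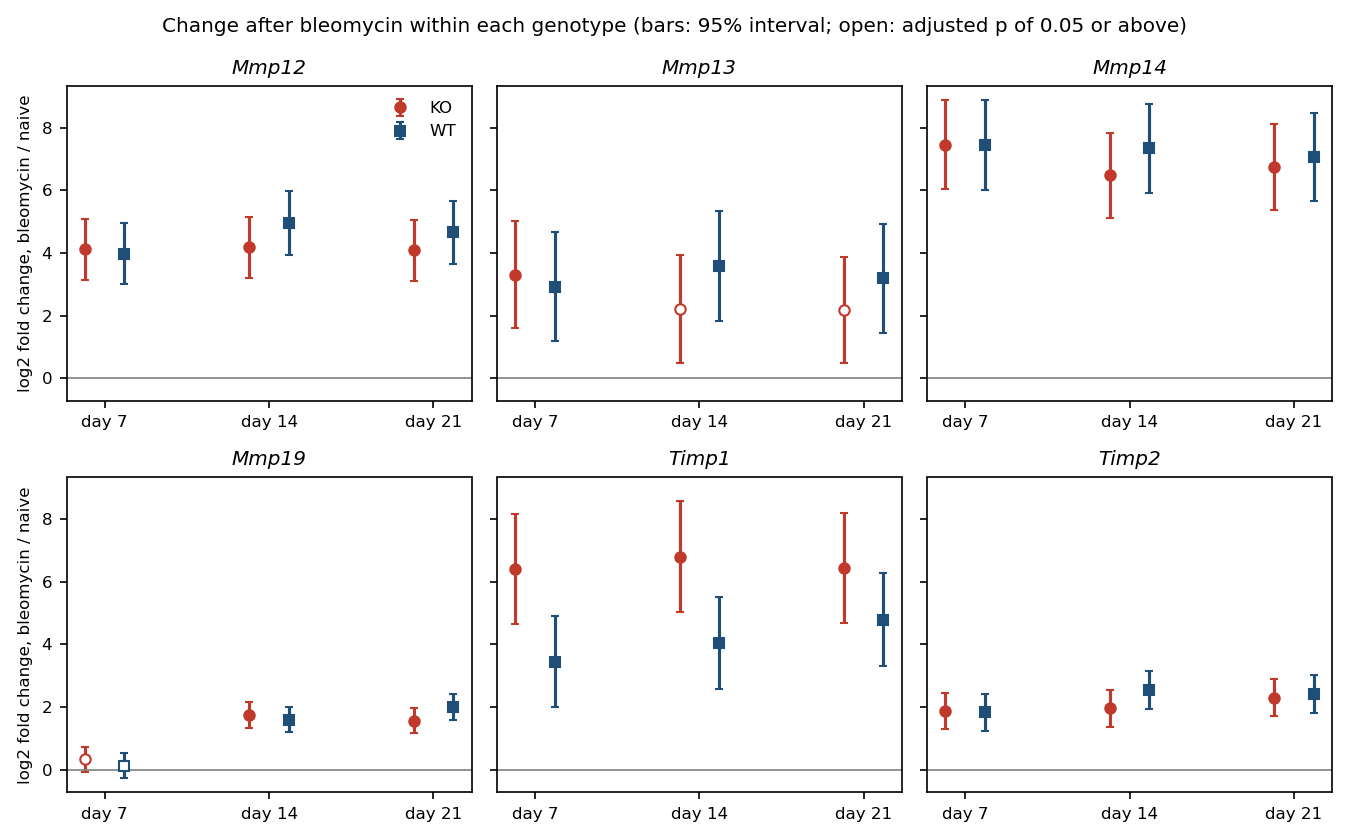
Log2 fold change of bleomycin over naive mice at days 7, 14 and 21, with KO as red circles left of WT as blue squares, bars for the 95% interval and open symbols for values that were not called. Mmp14 lies between 6.47 and 7.46 at every day, Mmp19 is open at day 7 and at 1.56 to 2.00 later, and Mmp13 is open at days 14 and 21 in KO mice.

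The gelatinases Mmp2 (chr8:92827291-92853420, plus strand) and Mmp9 (chr2:164940780-164955850, plus strand), which cut denatured and basement membrane collagen, were at or near 0 in naive mice. Mmp2 had 2, 0 and 0 counts in KO naive mice and 3, 0 and 0 in WT naive mice. After bleomycin KO mice had 1.2, 3.98 and 0.690 CPM at day 7, 7.16, 4.09 and 1.41 at day 14, and 2.68, 18.5 and 6.80 at day 21. WT mice had 1.29, 1.75 and 0.774 CPM at day 7, 13.2, 4.76 and 12.7 at day 14, and 7.70, 5.68 and 8.22 at day 21. All 18 bleomycin mice lay above all 6 naive mice, and the day 7 mice were lowest in both genotypes apart from KO day 7 mouse 2. The count ratio of day 21 over naive mice was 573 in KO mice (exact 95% counting interval 158 to 4736) and 265 in WT mice (90.3 to 1289). Such intervals cover counting error only. Mmp2 was called by edgeR at every day in both genotypes (adjusted p from 1.31e-05 to 0.00182), while limma-voom did not call it at any day in KO mice or at day 7 in WT mice (adjusted p from 0.0574 to 0.160).

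Fibroblasts are a known source of Mmp2, and the summed level of 10 fibroblast markers was 2.39 to 11.4 CPM in bleomycin mice and 0 to 0.300 CPM in naive mice. Most of that sum was Thy1, which T cells also express, with group means of 4.88, 2.75 and 6.25 CPM at days 7, 14 and 21 in KO mice and 6.597, 5.62 and 4.59 CPM in WT mice. Thy1 was the 1 of the 4 tested markers called higher over naive mice, at each day in either genotype. Col1a1, Col1a2, Dcn, Pdgfra, Pdgfrb and Postn had group means of at most 0.707 CPM, and Lum and Tcf21 were at 0 in every mouse. In WT mice the sums were 5.63, 6.14 and 9.15 CPM at day 14 and 6.72, 5.10 and 9.37 CPM at day 7. Mmp2 averaged 10.2 CPM at day 14 and 1.27 CPM at day 7 in these mice. Since the sums are mostly Thy1, they do not show how the other fibroblast markers were ordered between days. In WT mice at days 7 and 14, Col1a1 averaged 0 and 0.707 CPM and Col1a2 0.221 and 0.289 CPM. Dcn averaged 0.0701 and 0.0849 CPM, Col3a1 0 and 0.0825 CPM and Postn 0 and 0.0762 CPM. Pdgfra (0.100 and 0.0504 CPM) and Pdgfrb (0.0739 and 0.0641 CPM) averaged less at day 14. All of these levels lie near the floor. KO day 21 mouse 2 had the highest Mmp2 level, 18.5 CPM, and the highest sums of both fibroblast markers and T and NK cell markers. The part of RNA from these cells in the Mmp2 values was not tested.

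Mmp9 had no count in any naive library. KO mice had 0.182, 0.897 and 1.21 CPM at day 7, 0.247, 0.170 and 0 at day 14, and 0, 0.916 and 0.362 at day 21. WT mice had 1.94, 0.465 and 3.12 CPM at day 7, 0.0273, 0.257 and 0.991 at day 14, and 1.32, 0.0346 and 0.415 at day 21. The highest group mean was that of WT mice at day 7, and 2 KO mice stayed at 0 after bleomycin. Against a floor of 3 counts over the naive group, Mmp9 was at least 32.3-fold higher at day 7 in KO mice and at least 63.5-fold higher in WT mice. It was called by edgeR at days 7 and 21 in KO mice (adjusted p = 0.0131 and 0.0386), not at day 14 (0.158), and at all 3 days in WT mice (0.00579 to 0.0338). The calls after day 7 rest on 0 to 40 counts per library. They were lost without any 1 naive mouse of the same genotype, without WT day 14 mouse 3 (adjusted p = 0.146), without WT day 21 mouse 1 (0.0898) and without KO day 21 mouse 2 or mouse 3 (0.140 and 0.0662). DESeq2 called day 14 in KO mice as well (adjusted p = 0.0410), while limma-voom called neither KO day (7 or 21) nor WT days 14 and 21 (0.0592 to 0.296).

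Timp2 was the inhibitor with the most RNA per exon length (chr11:118301069-118355740, minus strand). KO mice had 124, 101 and 114 CPM when naive, 432.96, 479.9 and 327 at day 7, 633, 417 and 271 at day 14, and 305, 784 and 581 at day 21. WT mice had 123, 96.8 and 87.5 CPM when naive, 413, 386 and 290.1 at day 7, 562, 578 and 658 at day 14, and 583, 545 and 512 at day 21. Every bleomycin mouse was above every naive mouse. The log2 fold change was 1.87 ± 0.28, 1.96 ± 0.28 and 2.30 ± 0.28 at days 7, 14 and 21 in KO mice and 1.83 ± 0.28, 2.55 ± 0.29 and 2.42 ± 0.29 in WT mice (SE; edgeR adjusted p-values from 1.29e-06 to 4.19e-05). In KO mice the low values, 271 and 305 CPM, were again those of day 14 mouse 3 and day 21 mouse 1.

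Timp1, a secreted inhibitor that acts poorly on MMP14 (chrX:20870166-20874735, plus strand), rose from a level of a few counts. KO mice had 0.0460, 0.121 and 0.0923 CPM when naive, 6.04, 13.7 and 3.06 at day 7, 11.9, 9.38 and 8.73 at day 14, and 0.947, 12.4 and 9.88 at day 21. WT mice had 0.738, 0.147 and 0.416 CPM when naive, 6.07, 4.12 and 3.65 at day 7, 6.61, 5.79 and 8.26 at day 14, and 12.1, 12.7 and 10.2 at day 21. Bleomycin mice did not overlap naive mice of their genotype, and the lowest of them was KO day 21 mouse 1. The log2 fold change was 6.41 ± 0.84, 6.81 ± 0.85 and 6.43 ± 0.84 in KO mice and 3.45 ± 0.70, 4.03 ± 0.70 and 4.79 ± 0.71 in WT mice at days 7, 14 and 21 (SE; edgeR adjusted p-values from 7.58e-06 to 0.000681). The day 21 value in KO mice and the day 7 value in WT mice were not called by limma-voom (adjusted p = 0.0738 and 0.0735). Timp1 lies within Syn1 on the other strand, but the exons of both genes share 0 bases. Syn1 had 18.1 to 72.2 CPM in bleomycin mice and 51.0 to 70.7 CPM in naive mice.

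Timp3, an inhibitor that binds to the matrix and also blocks ADAM17 (chr10:86300372-86349506, plus strand), was hardly detected. KO mice had 0 counts in all 3 naive libraries, 0, 4 and 2 at day 7, 21, 0 and 0 at day 14, and 1, 7 and 89 at day 21. WT mice had 3, 0 and 0 counts when naive, 0, 0 and 6 at day 7, 7, 0 and 0 at day 14, and 15, 9 and 17 at day 21. All mice of day 21 had at least 1 count in either genotype, and 1 KO mouse held 89 of the 97 KO counts of that day. It was called only in KO mice at day 21, at least 38.3-fold higher than naive mice (edgeR adjusted p = 0.0342). That call was lost without KO day 21 mouse 3 (adjusted p = 0.234), without any 1 KO naive mouse (0.0973 to 0.0979) and by limma-voom (0.0767). In WT mice the day 21 ratio of 17.1 (exact 95% counting interval 5.46 to 86.4) was not called (edgeR adjusted p = 0.162). Timp3 shares 1733 exonic bases with Syn3 on the other strand, so its few counts are uncertain if reads were not assigned by strand.

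Levels of different genes were compared per kilobase of exon. Among the 9 genes, Mmp19 and Timp2 were the highest in naive mice, with 50.9 and 29.1 CPM per kb in KO mice and 59.9 and 26.3 in WT mice, followed by Mmp12 with 1.49 and 1.63. By day 7 Timp2 was the highest, at 106 CPM per kb in KO mice and 93.2 in WT mice, and Mmp14 had reached 57.6 and 50.9, close to Mmp19 at 63.9 and 65.4. At day 14 Mmp19 stood first again with 170.1 CPM per kb in KO mice and 181 in WT mice, ahead of Timp2 with 113 and 154. At day 21 Mmp19 and Timp2 had 150.2 and 142.9 CPM per kb in KO mice and 239 and 140.4 in WT mice. Timp1 reached 8.71 and 13.1 CPM per kb at that day, and Mmp2 2.77 and 2.14. Mmp13 stayed at or below 1.05, Mmp9 at or below 0.521 and Timp3 at or below 0.104 CPM per kb in every group.

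**Figure D3:**
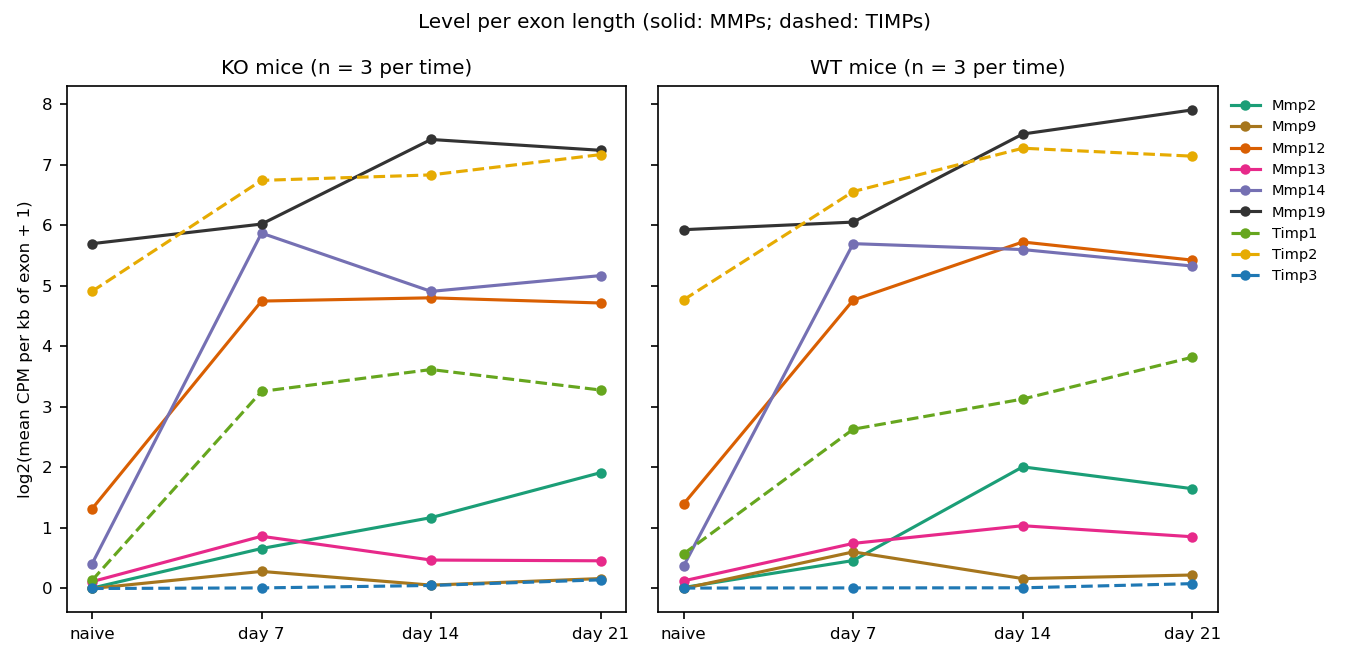
Group mean level of each gene per kilobase of exon, as log2(CPM per kb + 1), over naive mice and days 7, 14 and 21, for KO mice on the left and WT mice on the right, with MMPs as solid and TIMPs as dashed lines. Mmp19 and Timp2 are the highest at every time, Mmp14 is nearest to Mmp19 at day 7, and Mmp9, Mmp13 and Timp3 stay near the bottom.

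Between days after bleomycin, Mmp19 and Mmp2 were the members that changed. From day 7 to day 14 Mmp19 rose in KO mice by 1.41 ± 0.19 on the log2 scale (edgeR adjusted p = 0.000107), the 1 member called among 9 beside 6.79% of all tested genes that rose, and in WT mice by 1.47 ± 0.19 (adjusted p = 0.000217). In WT mice Mmp2 rose too, by 2.99 ± 0.73 (edgeR adjusted p = 0.0176), so that 2 of 9 were called beside 2.65% of all genes. Day 21 against day 7 gave Mmp19 and Mmp2 in both genotypes, beside 7.16% of all genes higher in KO mice and 5.49% in WT mice. Mmp19 was higher by 1.23 ± 0.19 in KO mice and 1.87 ± 0.20 in WT mice (edgeR adjusted p = 0.000251 and 5.31e-06), and Mmp2 by 2.25 ± 0.70 and 2.49 ± 0.72 (adjusted p = 0.0343 and 0.0277). Each Mmp2 call between days was lost when certain single libraries were left out, with adjusted p from 0.0565 to 0.0863 for WT day 14 and from 0.0658 to 0.108 for WT day 21, in each case without mouse 1 or mouse 3 of either group. For KO mice at day 21 it was lost without KO day 7 mouse 1 (0.153) or mouse 3 (0.118) and without KO day 21 mouse 2, where the fold change was 1.27 (adjusted p = 0.232). With all mice kept, limma-voom did not call Mmp2 for day 21 against day 7 in WT or KO mice (adjusted p = 0.078 and 0.0821). By edgeR on the compared groups alone it was not called in KO mice either (adjusted p = 0.18).

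Mmp9 and Mmp14 had their highest group mean at day 7 in both genotypes, but the later change of Mmp14 was not called. In KO mice it differed by -0.99 on the log2 scale at day 14 against day 7 (95% interval -2.03 to 0.05, edgeR adjusted p = 0.198). Without KO day 14 mouse 1 the value was -1.73 and was called (adjusted p = 0.0296). In WT mice the same comparison gave -0.10 (-1.13 to 0.93). Mmp12 and Timp2 were higher in all WT mice of day 14 than in all of day 7, by 0.99 (0.13 to 1.85) and 0.72 (0.16 to 1.29), and neither was called (edgeR adjusted p = 0.173 and 0.123). Of the 9 members, 4 had such groups without overlap there, beside 13.0% of all tested genes. Day 21 against day 14 gave 0 called members and 0 called genes by edgeR in either genotype, with 0 members at an unadjusted p under 0.05 in KO mice and 1 (Mmp19) in WT mice, and 0 members by DESeq2 or limma-voom.

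No member differed between KO and WT mice at an adjusted p under 0.05. The edgeR counts were 0 of 9 at every time, beside 0.546%, 0.00792%, 0.135% and 0.095% of all tested genes called in naive mice and at days 7, 14 and 21, and also 0 of 9 for the mean over the 4 times (0.325% of all genes) and over the 3 bleomycin days (0.507%). At an unadjusted p under 0.05 there were 1, 0, 1 and 1 members in naive mice and at days 7, 14 and 21. Means over the 4 times and over the 3 bleomycin days each gave 2, Mmp12 and Mmp19, both lower in KO mice. Over the bleomycin days their edgeR log2 fold changes were -0.56 and -0.26 (unadjusted p = 0.0269 and 0.0250, adjusted p = 0.307 and 0.2975). Over the 4 times these fold changes were -0.46 and -0.26 (edgeR adjusted p = 0.447 and 0.320). DESeq2 called 1 member at day 21, Mmp19, and 0 elsewhere, and limma-voom called 0. With 0 counts in all 6 naive libraries, Mmp9 could not be called by edgeR in naive mice or for the mean over the 4 times.

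**Figure D4:**
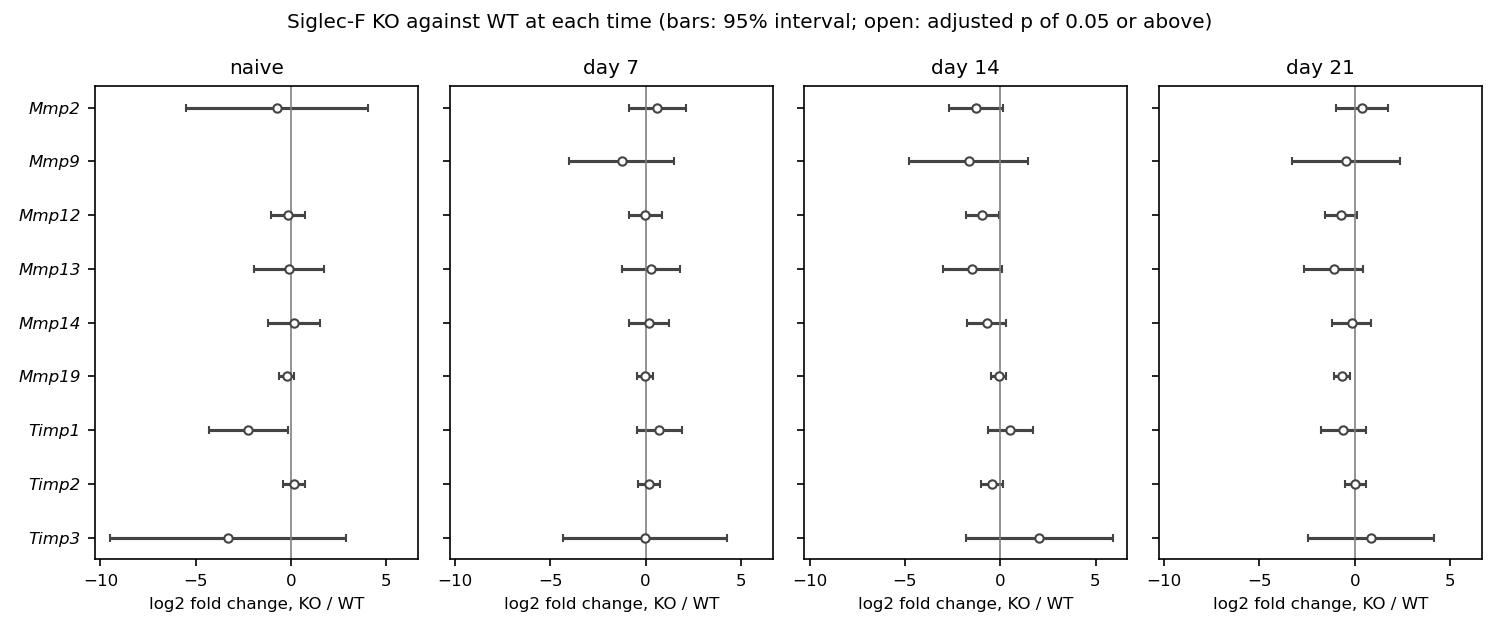
Log2 fold change of KO over WT mice for each gene in naive mice and at days 7, 14 and 21, with bars for the 95% interval; open points were not called, and Mmp9, with no count in naive mice, is not drawn there. All points are open, and the intervals of Mmp19 and Timp2 are the narrowest.

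At day 14 Mmp12 had 184, 259 and 141 CPM in KO mice, against 284, 283 and 559.7 CPM in WT mice, so that all KO mice lay below all WT mice. This 1 of 9 members stands beside 8.41% of all tested genes with all KO mice lower, and Timp1, with all KO mice higher, beside 7.05%. The log2 fold change of Mmp12, -0.95 (95% interval -1.81 to -0.09), was not called after adjustment by edgeR (adjusted p = 0.421), and it was -0.54 without WT day 14 mouse 3. At day 21 Mmp12 had 213, 109 and 227 CPM in KO mice and 354, 284 and 273 CPM in WT mice, again without overlap, with a log2 fold change of -0.73 (-1.59 to 0.13; adjusted p = 0.604) that was -0.46 without KO day 21 mouse 2. Recruited-macrophage markers, summed per mouse, also lay lower in KO mice at day 14, with 5132, 3561 and 1969 CPM against 5636, 7164 and 9522 CPM in WT mice, and overlapped at day 21. The part of this difference in the Mmp12 values was not tested.

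Mmp19 at day 21 had 468, 454.1 and 669.8 CPM in KO mice and 801, 983 and 749 CPM in WT mice, without overlap. Its log2 fold change was -0.67 (95% interval -1.07 to -0.27), with an adjusted p of 0.182 by edgeR, 0.156 by limma-voom and 0.0468 by DESeq2. At days 7 and 14 the difference was -0.03 (-0.43 to 0.36) and -0.09 (-0.48 to 0.30). Mmp13 at day 21 was the other member with all KO mice lower, at -1.12 (-2.66 to 0.43, adjusted p = 0.682). These 3 of 9 members without overlap in that direction at day 21 stand beside 8.24% of all tested genes.

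Timp1 lay lower in all KO than in all WT naive mice, with 0.0460, 0.121 and 0.0923 CPM against 0.738, 0.147 and 0.416 CPM, a difference of 11 against 45 counts. Its log2 fold change of -2.23 (95% interval -4.32 to -0.15) was not called (edgeR adjusted p = 0.537), and 7.79% of all tested genes had all KO naive mice lower. Timp2 differed by 0.15 (-0.42 to 0.71) in naive mice, 0.19 (-0.38 to 0.75) at day 7, -0.44 (-1.01 to 0.12) at day 14 and 0.03 (-0.54 to 0.59) at day 21. Mmp14 differed by 0.16 (-1.19 to 1.51), 0.18 (-0.85 to 1.21), -0.71 (-1.75 to 0.32) and -0.16 (-1.19 to 0.87) at the same times. The 95% intervals of Timp2 and Mmp19 lay between -1.07 and 0.75 at every time.

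The difference between the genotypes in their response to bleomycin was called for 0 of 9 members at each day by edgeR, DESeq2 and limma-voom, beside 0.00792%, 0.332% and 0.332% of all tested genes at days 7, 14 and 21 by edgeR. At an unadjusted p under 0.05 there was 1 member at day 7 and 1 at day 14, in both cases Timp1. Its rise over naive mice was larger in KO than in WT mice by 2.96 on the log2 scale at day 7 (95% interval 0.56 to 5.36, adjusted p = 0.651) and by 2.77 at day 14 (0.38 to 5.17, adjusted p = 0.384), with the naive counts given above in the denominator. For Mmp9 no such difference could be estimated, since all 6 naive libraries held 0 counts. The difference between the genotypes in the change from day 7 to day 14, from day 14 to day 21 and from day 7 to day 21, added after seeing the data, was called by edgeR for 0 of 9 members and 0.0% of all genes, with 0, 1 and 1 members at an unadjusted p under 0.05, in both cases Mmp19, and for 0 members by DESeq2 or limma-voom.

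Markers of recruited monocytes and macrophages, such as Ccr2, Cx3cr1, C1qa and Apoe, were higher after bleomycin. Of the 12 markers 11 were called higher at every day in both genotypes, and Ly6c2 was at 0 in all WT naive mice. They summed to 1969 to 7457 CPM in KO bleomycin mice, against 441 to 473.96 CPM in KO naive mice, and to 4993 to 9522 CPM in WT bleomycin mice, against 463 to 502 CPM in WT naive mice. The lowest sums after bleomycin, 1969 and 2162 CPM, were in KO day 14 mouse 3 and KO day 21 mouse 1, the mice with the lowest Mmp14 levels after bleomycin, 55.4 and 51.2 CPM. Mmp12 ordered the mice like the marker sums in some groups and not in others. At day 21 the KO mice had marker sums of 2162, 7203 and 4404 CPM and Mmp12 levels of 213, 109 and 227 CPM. At day 7 the KO mice had marker sums of 6131, 7457 and 3784 CPM and Mmp12 levels of 208, 249 and 105 CPM. WT day 14 mouse 3 had both the highest marker sum, 9522 CPM, and the highest Mmp12 level, 559.7 CPM. The mean of Mmp2 was lowest at day 7 among the bleomycin days, when marker sums were 3784 to 7457 CPM in KO mice and 5056 to 5780 CPM in WT mice. For Mmp19 no day 7 change was called, though its highest day 7 level, 293 CPM, was in KO day 7 mouse 2, which had the highest marker sum of that day. Of 13 resident markers 11, 4 and 0 fell and 0, 1 and 0 rose at days 7, 14 and 21 in KO mice, and 10, 8 and 6 fell and 0, 1 and 1 rose in WT mice. How much of each change came with the change in cell types was not tested.

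**Figure D5:**
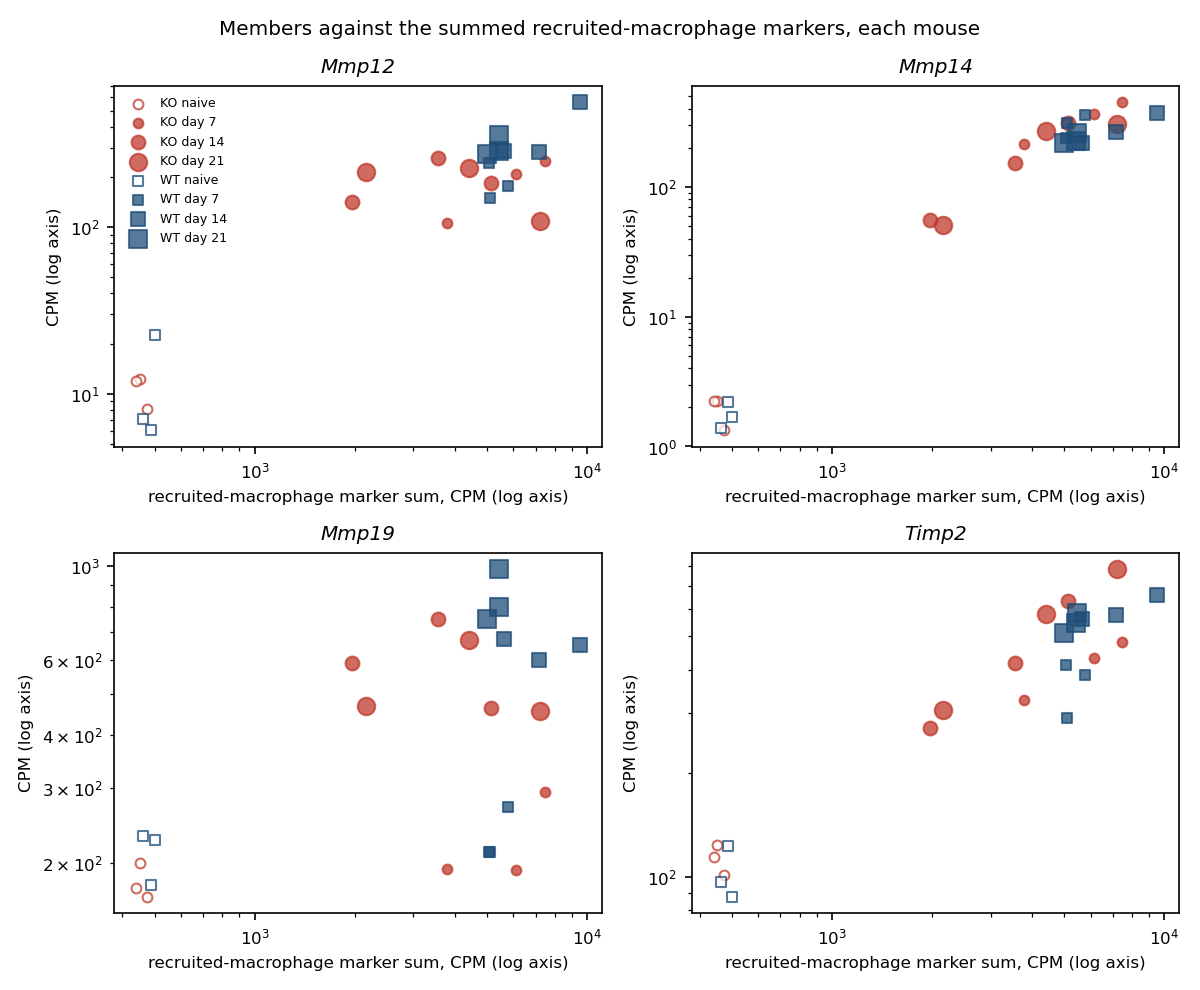
CPM of Mmp12, Mmp14, Mmp19 and Timp2 in each mouse against the summed CPM of 12 recruited-macrophage markers, both on log axes, with KO mice as red circles, WT mice as blue squares, naive mice open and later days drawn larger. The KO mice with marker sums of 1969 and 2162 CPM have the lowest Mmp14 values after bleomycin, and Mmp19 at day 7 lies at 192 to 293 CPM, against 166 to 231 CPM in naive mice.

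The 3 KO libraries nearest the naive mice were also left out, a choice that raises folds over naive mice by its construction. The edgeR counts of members that rose were then 8 at day 14 and 9 at day 21 in KO mice, where the lone day 14 mouse is assumed to vary like the other groups. Mmp13 was called at both days (log2 fold change 3.08 and 2.61, adjusted p = 0.0143 and 0.0104), and the day 14 count also takes in Timp3, whose 21 counts in 1 library against 0 in naive mice give no estimate of a fold. The KO against WT counts were still 0.

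The genes whose pattern over the 8 group means of log2(CPM + 1), each centred on its own mean, was most like that of a member were named by the root mean square difference. For Mmp12 these were Kcnk13 (0.139), Ecm1 (0.199) and Slc6a8 (0.264). For Mmp14 they included C3ar1 (0.358) and Marcks (0.425), and they were for Mmp19 Kif1a (0.226), Rragd (0.229) and Ace (0.264), and for Timp2 Fgd6 (0.123), Lamc1 (0.155) and Rgag4 (0.160). For Mmp2 they were Stac2 (0.247), Sdc1 (0.286) and Gng12 (0.306), and for Timp1 Pam (0.297), Fads2 (0.312) and St14 (0.313). Ecm1, an extracellular matrix protein, averaged 15.4 CPM in KO naive mice and 241, 209.8 and 257 CPM at days 7, 14 and 21, against 12.0 CPM in WT naive mice and 185, 374 and 309 CPM. Ace, angiotensin-converting enzyme, was near its naive level at day 7 and higher at day 14, like Mmp19. It averaged 61.3 CPM in KO naive mice and 66.6, 194 and 316 CPM at days 7, 14 and 21, and 59.3, 63.2, 176 and 219 CPM in WT mice at the same times. At day 21 the mean of Ace was thus higher in KO mice, whereas Mmp19 averaged 531 CPM in KO mice and 844 CPM in WT mice. Mmp9, Mmp13 and Timp3 lie too near 0 on this scale for the measure to separate them from nearly flat genes.

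Of 18 further genes of the family, 17 MMPs and Timp4, only 8 passed the filter, and Mmp1a, Mmp1b, Mmp7, Mmp16, Mmp20 and Mmp21 had 0 counts in all 24 libraries. In KO mice 2, 3 and 3 of the 8 rose at days 7, 14 and 21, and in WT mice 1, 1 and 3, with none lower, beside the shares of all genes given above for the members. Of these 8, Mmp15, Mmp27 and Mmp28 had at most 0.0777, 0.0460 and 0.155 CPM in naive mice, below the filter's minimum of 0.286 CPM. They passed through their bleomycin libraries, so a rise was partly fixed by the filter and a fall could hardly be called. Mmp8, known as the neutrophil collagenase, was the 1 of the 8 with a level above 5 CPM. It averaged 214 ± 98.3 CPM in KO mice at day 14, against 65.7 ± 21.7 CPM in KO naive mice (SD, n = 3 each), a log2 fold change of 1.71 (edgeR adjusted p = 0.00338). In WT mice it averaged 150.1 ± 38.4 CPM at day 14, against 66.9 ± 23.9 CPM in WT naive mice (log2 fold change 1.16, adjusted p = 0.0223). At day 21 it averaged 69.0 CPM in KO mice, where it was not called, and 142 CPM in WT mice, where it was (log2 fold change 1.09, adjusted p = 0.0310). Neutrophil marker sums were at most 147 CPM in bleomycin mice and 57.8 to 66.2 CPM in naive mice. Elane and Camp were at 0, but other markers rose. S100a8 averaged 64.4 CPM in KO mice and 54.3 CPM in WT mice at day 21, against 5.87 and 4.88 CPM when naive. Of the 6 tested neutrophil markers, 2, 1 and 2 rose and 0, 1 and 1 fell at days 7, 14 and 21 in KO mice. In WT mice 2, 3 and 4 rose and 1, 0 and 1 fell. The part of neutrophil RNA in the Mmp8 values was not tested. None of the 8 differed between KO and WT mice.

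The activators, binders and other inhibitors of MMPs moved in both directions. Over all tested genes, 14.4%, 4.84% and 6.89% fell at days 7, 14 and 21 in KO mice and 15.3%, 13.4% and 13.7% in WT mice. Of 22 listed genes, 13 were tested, of which 5, 1 and 4 rose and 2, 1 and 1 fell at days 7, 14 and 21 in KO mice, and 3, 4 and 6 rose and 3, 3 and 2 fell in WT mice. The list's median log2 fold change over naive mice was 0.64, 0.30 and 0.36 in KO mice and 0.37, 0.58 and 0.91 in WT mice. Plau, urokinase, which makes plasmin, averaged 92.8 ± 31.8 CPM in KO mice at day 7, against 28.2 ± 0.640 CPM in KO naive mice (log2 fold change 1.72), and 82.0 ± 19.6 CPM in WT mice at day 7, against 19.9 ± 3.49 CPM in WT naive mice (2.04; edgeR adjusted p = 1.18e-05 and 1.98e-06).

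Furin, the convertase that activates pro-MMP14, was called at day 21 only, with a log2 fold change of 0.85 in KO mice and 0.91 in WT mice (edgeR adjusted p = 0.0342 and 0.0173). Cd63, a tetraspanin that binds TIMP1, averaged 655 ± 254 CPM in KO mice at day 21, against 230.1 ± 65.9 CPM in KO naive mice, and 860.3 ± 43.1 CPM in WT mice at day 21, against 148 ± 26.3 CPM in WT naive mice (log2 fold changes 1.51 and 2.54, edgeR adjusted p = 0.000251 and 6.82e-07). Plaur, the urokinase receptor, was the 1 gene of this list called between the genotypes at any time, at 203.6 ± 15.7 CPM in KO naive mice and 350.3 ± 36.3 CPM in WT naive mice (log2 fold change -0.78, edgeR adjusted p = 0.0218).

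Related proteases of the ADAM and ADAMTS families, some of which TIMP3 inhibits, were measured in 13 of 28 listed cases. Of these 13, 7, 6 and 7 rose and 2, 1 and 1 fell at days 7, 14 and 21 in KO mice, and 8, 8 and 8 rose and 2, 2 and 1 fell in WT mice. At the same days 19.7%, 12.0% and 15.0% of all tested genes rose in KO mice and 20.2%, 18.7% and 18.8% in WT mice, while 14.4%, 4.84% and 6.89% fell in KO mice and 15.3%, 13.4% and 13.7% in WT mice. Adam8, a membrane protease of leukocytes, averaged 103 ± 49.1 CPM in KO mice at day 7, against 0.226 ± 0.129 CPM in KO naive mice, and 72.0 ± 14.7 CPM in WT mice at day 7, against 0.156 ± 0.103 CPM in WT naive mice (log2 fold changes 8.80 and 8.99, edgeR adjusted p = 2.68e-08 and 5.06e-08). Its naive means lay below the filter's minimum of 0.286 CPM, so this rise may be partly fixed by the filter. In KO mice Adam8 fell between days 7 and 14 by 1.75 on the log2 scale, to 30.5 ± 19.6 CPM at day 14 (edgeR adjusted p = 0.0178). Adamts2, which trims procollagen, fell at day 7 by 1.28 in KO mice and 1.19 in WT mice (edgeR adjusted p = 1.08e-05 and 2.43e-05).

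Among 17 matrix substrates, 11 were tested, of which 5, 4 and 5 rose at days 7, 14 and 21 in KO mice and 7, 6 and 7 in WT mice, with none lower, where 19.7%, 12.0% and 15.0% of all tested genes rose in KO mice and 20.2%, 18.7% and 18.8% in WT mice. Spp1, osteopontin, averaged 11506 ± 7419 CPM in KO mice at day 21, against 342 ± 58.4 CPM in KO naive mice, and 16438 ± 1304 CPM in WT mice at day 21, against 383 ± 55.3 CPM in WT naive mice (log2 fold changes 5.07 and 5.42, edgeR adjusted p = 9.42e-07 and 3.49e-07). Vcan, versican, was highest at day 7, with 32.2 ± 10.4 CPM in KO mice and 24.4 ± 7.63 CPM in WT mice, and fell by day 14 in both (log2 fold change -2.91 in KO mice and -2.07 in WT mice, edgeR adjusted p = 0.00364 and 0.0463). None of the 11 was called between KO and WT mice. Any gene of this list below the filter's minimum in naive mice passed through its bleomycin libraries. For such a gene a rise was partly fixed by the filter and a fall could hardly be called.

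Factors of the AP-1, ETS and NF-kB families, several of which act on MMP promoters, were measured in all 18 listed cases. In KO mice 4, 3 and 2 rose and 4, 1 and 1 fell at days 7, 14 and 21, and in WT mice 3, 5 and 3 rose and 4, 2 and 2 fell. As a background, 19.7%, 12.0% and 15.0% of all tested genes rose in KO mice and 20.2%, 18.7% and 18.8% in WT mice. Junb was called at all 3 days in both genotypes, with log2 fold changes of 0.83, 1.05 and 0.79 in KO mice and 1.07, 1.45 and 0.92 in WT mice (edgeR adjusted p from 1.24e-06 to 0.00123). Jun was lower in KO than in WT naive mice, at 31.7 ± 4.24 CPM against 60.6 ± 19.3 CPM (log2 fold change -0.93, edgeR adjusted p = 0.0417).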

How the data were processed

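The airspace macrophages of each mouse gave 1 RNA library (RNeasy Micro Plus, 200 ng of RNA, Universal Plus mRNA-Seq), sequenced as 150 bp pairs, per the labels' protocols. The deposited table holds expected counts, which are estimated read counts per gene (3.11 to 3.85% of entries not whole). It has a column for every mouse, although the labels list 2 runs for each, and whether both runs were added is not stated. The submitters' processing notes name mm10, bcl2fastq, DESeq2 1.42.0 and limma 3.58.1. Aligner, counter and strand use: not given in the sources used here. Reads of overlapping genes may therefore be split. A further 24 columns of other samples were not used.

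Expected counts were rounded to whole numbers. Genes were filtered with filterByExpr of edgeR 4.0.16 (minimum count 10, minimum total 15), scaled by TMM and fitted in R 4.3.3 with 8 group means (16 residual degrees of freedom, prior 4.434, common biological coefficient of variation 0.2104). SE and 95% intervals came from the quasi-likelihood F statistic. For a lower bound, a group with 0 counts was set at 3 counts over the group. Bounds and counting intervals cover counting error only, since reads carry no molecular identifiers. Mice of the same group differed far beyond counting error, with chi-square values of 13.4 to 227 for each degree of freedom.

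The alternatives were DESeq2, limma-voom, RLE scaling, no filter, only the compared groups, the mouse number as a block, and leaving out each library. The genotype difference in the change between days, and the setting without the 3 KO libraries nearest the naive mice, were added after seeing the data. Positions and exon lengths came from GENCODE M21. Genes of the other lists could be named where they were called with a group mean of at least 5 CPM, at most 4 for each list and comparison by smallest p, and the 3 genes most alike for each member. The members and lists were chosen with earlier results of these data known, so nothing here is an independent test of them. The fitting steps were tested on simulated data. The labels give each library as a separate mouse. Some results are not reported here.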

Additional observations from a re-analysis of the deposited data

Results flagged for a closer look

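Timp1 lay in opposite directions between the genotypes at 2 times. In naive mice all KO mice were below all WT mice, with a log2 fold change of -2.23 on 11 counts in KO and 45 counts in WT libraries, and at day 14 all KO mice were above all WT mice, with 0.54. Neither was called by edgeR (adjusted p = 0.537 and 0.818). The tested difference between the genotypes in the day 14 response, 2.77 on the log2 scale, was not called either (edgeR adjusted p = 0.384).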

How the results depend on the processing

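Member counts by edgeR moved by more than 1.5 times under the following settings. For KO day 21 against naive mice limma-voom called 4 members in place of 8. For KO against WT at day 21 DESeq2 called 1 in place of 0. For WT day 21 against day 7 limma-voom called 1 and the model of the compared groups alone 5, in place of 2. For KO day 21 against day 7 limma-voom and the model of the compared groups alone each called 1 in place of 2. Leaving out each library gave 1 to 2 members for WT day 14 against day 7, WT day 21 against day 7, KO day 14 against day 7 and KO day 21 against day 7. The cause was not tested. Of 1383 fold changes of members under other settings 16 lost and 12 gained a call, and of 1890 with single libraries left out 29 lost and 4 gained one. None reversed a called direction, and 171 of the 3273 changed sign between values that were not called. The model of the compared groups alone has no value for the mean over the 4 times, which uses all groups.

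Genome-wide counts moved by more than 1.5 times in 39 of 157 comparisons under other settings and 82 of 210 with single libraries left out. The KO against WT counts, 69, 1, 17 and 12 in naive mice and at days 7, 14 and 21, ran from 31 to 164, 1 to 13, 3 to 141 and 3 to 132 under other settings, and from 11 to 73, 1 to 1, 1 to 242 and 1 to 74 with single libraries left out.

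Same-numbered mice deviated together in 1 comparison, WT day 7 against naive mice (correlations of 0.5978, 0.4328 and 0.1827), and in no other were all 3 correlations above 0.1 (lowest -0.6421). With the replicate block 7 members were called for WT day 14 against naive mice in place of 8, and 7 for KO day 21 against naive mice in place of 8, in both cases without Mmp9 (edgeR adjusted p = 0.0535 and 0.0545). For WT day 7 against naive mice the count with the block was 7, as without it.

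Depth limits Mmp2, Mmp9, Mmp13, Timp1 and Timp3, whose naive libraries held 0 to 21 counts each.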
